A study of Homo sapiens with 18 samples.

Results

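SKBR3 is an established human breast cancer cell line in which the ERBB2 gene is amplified, and lapatinib is a small molecule that blocks the kinases of EGFR and ERBB2. The comparison described here is that of the parental, drug-sensitive line at 1 µM lapatinib with the same line under basal conditions. It rests on 3 arrays at 1 µM and 3 basal arrays, which were chosen by their labels and are 6 of the 18 arrays of the study, and on the 12541 genes that the probe annotation names and that were bright enough to test. The study as a whole measured total RNA of the parental line and of a lapatinib-resistant SKBR3 line on Illumina bead arrays, each line at 1 µM, at 0.1 µM and under basal conditions, with 3 arrays per group. The other 4 groups served for a test of the dose step from 0.1 µM to 1 µM in the parental line, for a test against the response of the resistant line, and for the estimate of the spread. The labels give neither the length of treatment, nor what the basal cultures received, nor whether the resistant line is 1 clone. They also do not say that the 3 arrays of a group came from separate cultures, so p-values measure the spread between these samples only, which may be technical.

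ERBB2 signals mainly as a dimer with ERBB3 or EGFR, and its kinase activity drives 2 main routes. The RAS-MAPK route induces immediate early genes together with its own feedback inhibitors, and the PI3K-AKT-mTOR route keeps FOXO transcription factors out of the nucleus and promotes protein synthesis. Cells in which both routes are held back generally leave the cell cycle in G1, where the E2F factors that drive genes of DNA replication are restrained, and genes of mitosis are then shut off through the DREAM complex.

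The arrays were alike within the 1 µM group and within the basal group of the parental line. Across the tested genes the log2 signals of arrays in 1 group correlated at r = 0.994 to 0.996, while arrays at 1 µM and basal arrays correlated at 0.978 to 0.979. Mean raw signal per array was 505 ± 25 at 1 µM and 646 ± 25.9 in basal samples (SD, n = 3 each), and 37.1% to 39.7% of probes lay above background on these 6 arrays. The identity of the cells was checked against markers. ERBB2 was among the brightest genes, with a mean log2 signal of 15.37 ± 0.05 at 1 µM and 15.09 ± 0.2 in basal samples, and GRB7, STARD3, KRT8, KRT18, KRT19 and EPCAM were above background on all 6 arrays. E-cadherin (CDH1), the progesterone receptor (PGR), vimentin (VIM) and the basal keratin KRT14 were above background on 0 of the 6 arrays. The basal keratin KRT5 was above background on 2 of 3 arrays at 1 µM and on 0 of 3 basal arrays, and the oestrogen receptor ESR1 on 1 of 3 at 1 µM and on 2 of 3 basal arrays. Because RNA was taken from whole cultures, fewer cells of one kind and less RNA per cell cannot be told apart in any of the results.

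Lapatinib at 1 µM changed a large share of the transcriptome. In limma, with Benjamini-Hochberg adjustment over all genes and an adjusted p threshold of 0.05, 3507 of 12541 genes (28.0%) passed, 1797 of them higher at 1 µM (14.3%) and 1710 lower (13.6%). At least 2-fold changes were found in 149 genes that rose (1.19%) and 128 genes that fell (1.02%). Most changes were small. The median size among genes that passed was 0.49 on the log2 scale, and 5% of all genes lay beyond 0.58 above and another 5% beyond -0.58 below basal, while the median SE was 0.12 and the median change of all genes 0.01. The 3 arrays at 1 µM lay wholly above or wholly below the 3 basal arrays in 42.7% of tested genes. Among genes that passed, 3412 (97.3%) had such a separation. Log2 changes are given as 1 µM minus basal, with their SE, and a change of 1 is 2-fold.

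The balance between rises and falls depended on the scaling. After quantile normalization all arrays share a single distribution of signals, so a change is relative to the other probes. When each array was instead scaled by its median over all probes, the median change of all genes moved to -0.14, and 764 genes were higher and 3578 lower. All 1710 falls kept their call under that scaling and 738 of the 1797 rises did, while 103 rises turned sign. Gene lists are therefore described with their median, beside the median of all genes, and counts under median scaling stand beside lists whose balance they change. The counts of members called in each list can be read against the 14.3% and 13.6% of all genes.

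**Figure D1:**
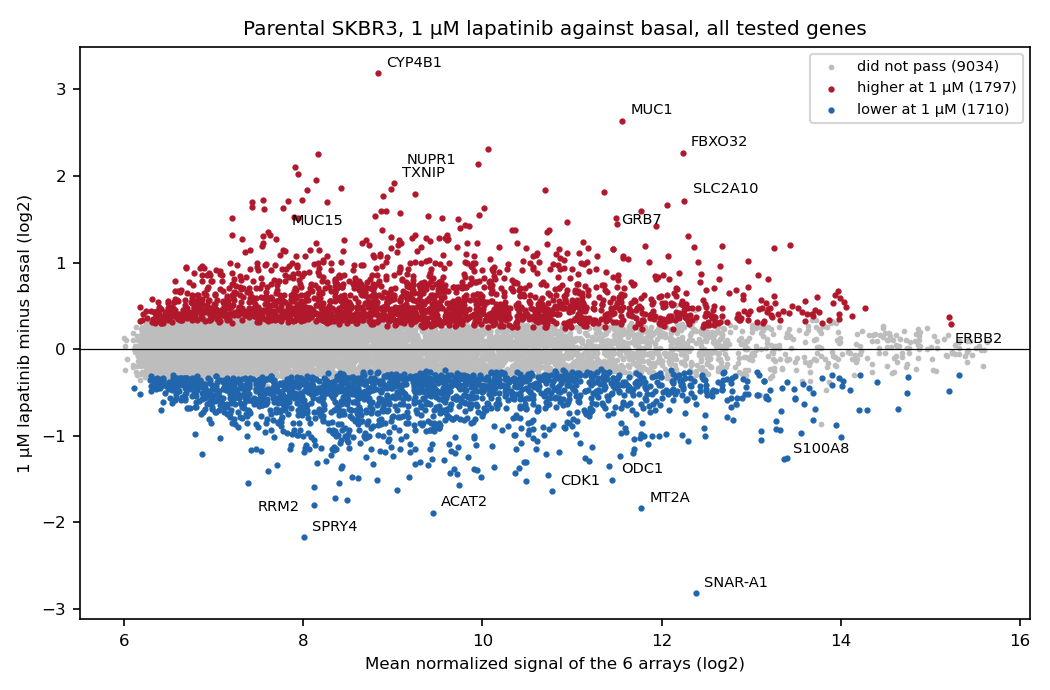
Each point is 1 of the 12541 tested genes, with the mean normalized log2 signal of the 6 arrays on the x axis and the log2 change, 1 µM minus basal, on the y axis. The 1797 genes that rose are red, the 1710 that fell are blue, and CYP4B1 (3.19) and SNAR-A1 (-2.82) lie at the ends.

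The largest rise was in CYP4B1, a cytochrome P450 that oxidises fatty acids and xenobiotics. Its log2 signals were 10.5, 10.51 and 10.28 at 1 µM, against 6.99, 7.51 and 7.23 in basal samples. The lowest array at 1 µM thus lay far above the highest basal one, and the change was 3.19 ± 0.14, or 9.11-fold (limma, adjusted p = 4.26e-15). MUC1, the transmembrane mucin of the apical surface of luminal cells, had 12.94, 12.84 and 12.87 at 1 µM, against 10.3, 10.16 and 10.27 in basal samples, a 6.25-fold rise. FBXO32, the F-box subunit of a ubiquitin ligase known from muscle wasting, had 13.33, 13.44 and 13.33 at 1 µM, against 11.12, 11.07 and 11.11 in basal samples, a 4.81-fold rise. Both genes were bright under basal conditions, so these rises concern abundant transcripts. The other probes gave 2.69 and 1.60 for MUC1 and 1.87 and 0.62 for FBXO32.

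After these came ELAPOR1 (2.31), VSIG2 (2.25), the stress-induced NUPR1 (2.14), the lipogenic regulator THRSP (2.10) and the calcium sensor NCALD (2.02). TMEM176A, a 4-pass membrane protein, changed by 1.95 ± 0.17, TXNIP, which binds thioredoxin and lowers glucose uptake, by 1.92 ± 0.12, and the calpain CAPN9 by 1.86 ± 0.11, with 0.75 at its other probe. MAL, a proteolipid of apical transport, rose by 1.84 ± 0.10 and LRRC31 by 1.84 ± 0.12. The calcium-activated cation channel TRPM4 (1.81 ± 0.13), the transcriptional repressor BCL6 (1.79 ± 0.11) and the protease inhibitor SPINK8 (1.77 ± 0.16) completed the 16 largest rises. All 16 kept their call when any 1 of the 6 arrays was left out and under median scaling.

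The largest fall was in SNAR-A1, a small non-coding RNA transcribed from many near-identical copies. Whether its probe tells the copies apart was not tested. SNAR-A1 had 12.01, 10.42 and 10.5 at 1 µM, against 13.84, 13.68 and 13.87 in basal samples. One array at 1 µM stood well above the other 2 but still below all basal arrays. The change was -2.82 ± 0.47 (adjusted p = 3.14e-05), and it ranged from -3.33 to -2.54 when 1 array was left out. The ribonucleotide reductase subunit RRM2, which makes deoxynucleotides for replication, had 7.12, 7.28 and 7.27 at 1 µM, against 9.01, 9.0 and 9.06 in basal samples. The mitotic kinase CDK1 had 9.96, 9.85 and 10.05 at 1 µM, against 11.72, 11.65 and 11.41 in basal samples. The changes of RRM2 and CDK1 were -1.80 ± 0.11 and -1.64 ± 0.11. Groups without overlap were a condition for being named among the largest falls.

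The metallothionein MT2A fell (-1.84 ± 0.23), as did PHLDA2, an imprinted growth restrictor of the placenta (-1.74 ± 0.13), CDCA3, a cell cycle ubiquitin ligase adaptor (-1.72 ± 0.15), and the condensin subunit NCAPG (-1.63 ± 0.12). Smaller falls were those of the mitochondrial nuclease EXOG (-1.59 ± 0.21), UHRF1, which maintains DNA methylation (-1.57 ± 0.11), ZCCHC12 (-1.55 ± 0.14), the kinase AURKB (-1.55 ± 0.13) and the DNA polymerase epsilon subunit POLE2 (-1.49 ± 0.12). ODC1, the first enzyme of polyamine synthesis, had 10.69, 10.74 and 10.66 at 1 µM, against 12.19, 12.18 and 12.24 in basal samples. Its groups lay 1.51 apart on the log2 scale with hardly any spread within them. For 3 of the 16 largest falls the other probes of the gene did not move as far. SPRY4 changed by -2.17 at its brightest probe but by 0.09 and -0.28 at its others, the cholesterol pathway enzyme ACAT2 by -1.89 against -0.11, and the WNT co-receptor KREMEN2 by -1.51 against -0.12.

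**Figure D2:**
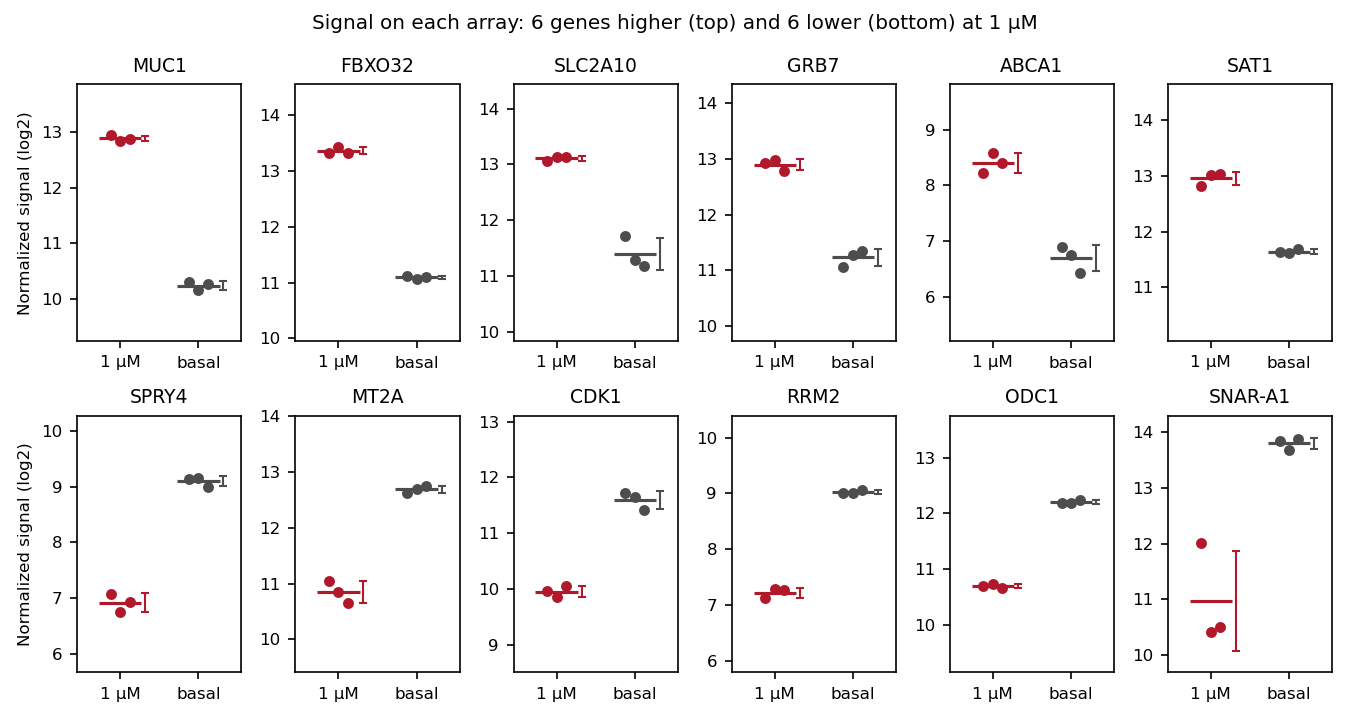
Normalized log2 signal of 12 genes on each array, with 1 µM on the left and basal on the right of each panel. Points are arrays, horizontal lines are group means, bars are 1 SD (n = 3), and each panel spans the same range. In none of the 12 genes do the groups overlap, and SNAR-A1 at 1 µM has the widest spread.

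Receptors and adaptors of the ERBB family did not move in 1 direction. Of 15 tested members 4 rose and 3 fell, with a median of 0.21, and under median scaling 3 rose and 4 fell. The largest rise was in GRB7, an SH2 adaptor co-amplified with ERBB2, which had 12.93, 12.98 and 12.78 at 1 µM, against 11.07, 11.28 and 11.35 in basal samples (1.66 ± 0.14). Its other probes gave 1.44 and 0.54. STARD3, which lies in the same amplified segment, changed by -0.18 ± 0.12 (adjusted p = 0.317). LRIG1, which promotes degradation of ERBB receptors, rose (1.28 ± 0.11), as did the kinase-impaired receptor ERBB3 at its brightest probe (1.05 ± 0.10), but not at its others (0.06 and 0.01). ERRFI1, a direct inhibitor of EGFR and ERBB2 kinases, had 9.29, 9.49 and 9.38 at 1 µM, against 10.56, 10.3 and 10.39 in basal samples, and fell (-1.03 ± 0.10). HRAS fell as well (-0.81 ± 0.10), with -0.10 at its other probe. ERBB2 itself changed by 0.29 ± 0.11 (adjusted p = 0.0476), which no longer passed after median scaling (0.12), with the replicate number as a block (adjusted p = 0.0595) and without any 1 array other than basal replicate 1 (0.20 to 0.31). Of 6 tested ligands HBEGF fell (-0.49 ± 0.12), while NRG2, BTC and EGF rose by 0.36 to 0.48. NRG2 and BTC were above background on 1 of 3 basal arrays. The call of NRG2 ended without basal replicate 2 or 3 (0.39 and 0.42), that of BTC without 1 µM replicate 2 or basal replicate 1 or 2 (0.34 to 0.35), and that of EGF without 1 µM replicate 1 or 3 or basal replicate 3 (0.31 to 0.35).

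Feedback inhibitors of the MAPK route fell in 4 of 11 tested members and rose in 0, with a median of 0.00. Beside SPRY4 these were DUSP4, a nuclear phosphatase of ERK (-0.94 ± 0.13), the RAF inhibitor SPRED2 (-0.43 ± 0.10) and the ERK phosphatase DUSP5 (-0.35 ± 0.11), whose call ended without replicate 1 of either group (-0.31 and -0.32). SPRY2 and SPRED1 changed by 0.00, and DUSP1, a stress-induced MAP kinase phosphatase, by 0.11 ± 0.11 (adjusted p = 0.537). Among 21 ETS and immediate early factors 3 rose and 4 fell, with a median of -0.14, and under median scaling 1 rose and 9 fell. EGR1, the zinc finger factor induced within minutes of ERK activity, had 8.49, 8.34 and 8.41 at 1 µM, against 9.61, 9.58 and 9.46 in basal samples. JUN fell less (-0.64 ± 0.16), and the ETS factor ETV4 fell (fitted -0.59 ± 0.12, with -0.35 at its other probe, above background on 1 of 3 arrays at 1 µM). The ETS family member ETS2 moved the other way (1.01 ± 0.10). MYC, a main target of growth signals, did not pass (-0.14 ± 0.10, adjusted p = 0.36), although it fell under median scaling (-0.51).

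FOXO factors and their targets formed the list with the highest share of rises, 18 of 29, with 1 fall and a median of 0.55. Under median scaling 15 rose and 3 fell. Beside FBXO32, TXNIP and BCL6, PDK4 had 7.86, 7.9 and 8.13 at 1 µM, against 6.48, 6.37 and 6.5 in basal samples, where it was above background on 1 of 3 arrays. PDK4 inhibits pyruvate dehydrogenase, and its fitted change was 1.52 ± 0.13. PIK3IP1, a membrane inhibitor of PI3 kinase, rose (1.43 ± 0.10), as did the cyclin G gene CCNG2 (1.28 ± 0.11), YPEL3 (1.26 ± 0.13), which is linked to growth arrest, and TSC22D3, a leucine zipper protein induced by glucocorticoids (0.99 ± 0.12). The other probes gave 0.51 and 0.51 for CCNG2 and 0.92, 0.23 and 0.18 for TSC22D3. FOXO3 rose (0.92 ± 0.10) and FOXO1 did not pass (-0.09 ± 0.11, adjusted p = 0.618). The cyclin-dependent kinase inhibitor CDKN1B rose at its brightest probe (0.61 ± 0.14) but not at its other one (-0.18), and its call ended under median scaling (0.33) and with the mean of its probes (0.22). SOD2, the mitochondrial superoxide dismutase, was the fall (-0.51 ± 0.10). The proapoptotic FOXO target BCL2L11 changed by 0.05 ± 0.15, and SESN1 and SESN3, which restrain mTOR, by -0.07 and -0.12.

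The forkhead core GTAAACA, searched on both strands in RefSeq windows of 300 bases that run from 250 before to 50 after each annotated start (GRCh38.p14), was present for 8 of 26 FOXO list members with a window (30.8%). It was present for 3.51% of the 10148 tested genes with a window and in 3.42% of all 35116 windows. Among all genes that rose 5.27% held it, and 11% of those that rose at least 2-fold, which include members of the FOXO list. Among all genes that fell 1.98% held it, and 2.78% of those that fell at least 2-fold. A match describes the letters of the window and does not show binding. With 1 chromosome left out, the windows of the 3 members with the largest rise among those that hold the core are shown. A member with a larger rise on that chromosome would therefore not be shown. The windows give the context of the core and are read on the strand of the gene. The match is in capitals (TGTTTAC where it lies on the other strand). None of the 8 matches shared a base with another motif searched. The TXNIP window is chr1:145996530-145996829 (minus strand), that of PIK3IP1 chr22:31292439-31292738 (minus strand) and that of YPEL3 chr16:30096164-30096463 (minus strand). The first base of the match lies at -124, 17 and 1 relative to the annotated start in TXNIP, PIK3IP1 and YPEL3.
TXNIP: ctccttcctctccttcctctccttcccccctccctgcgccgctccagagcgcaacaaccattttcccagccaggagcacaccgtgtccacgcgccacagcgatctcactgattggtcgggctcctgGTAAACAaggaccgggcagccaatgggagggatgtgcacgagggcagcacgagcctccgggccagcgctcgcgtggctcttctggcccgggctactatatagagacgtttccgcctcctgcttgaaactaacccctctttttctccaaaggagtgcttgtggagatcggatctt
PIK3IP1: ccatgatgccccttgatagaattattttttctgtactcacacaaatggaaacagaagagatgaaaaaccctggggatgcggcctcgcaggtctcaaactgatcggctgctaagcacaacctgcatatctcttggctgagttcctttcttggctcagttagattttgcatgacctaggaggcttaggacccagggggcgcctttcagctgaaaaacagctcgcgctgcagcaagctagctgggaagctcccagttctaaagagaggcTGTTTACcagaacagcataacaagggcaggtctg
YPEL3: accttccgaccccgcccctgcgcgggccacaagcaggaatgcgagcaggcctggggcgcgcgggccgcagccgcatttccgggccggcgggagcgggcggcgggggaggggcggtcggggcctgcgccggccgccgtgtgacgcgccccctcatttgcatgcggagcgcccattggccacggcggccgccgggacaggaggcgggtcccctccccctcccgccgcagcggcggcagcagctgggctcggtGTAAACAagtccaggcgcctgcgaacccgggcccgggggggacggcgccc

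Other parts of the PI3K route moved less. Of 18 insulin and IGF receptors and adaptors 5 rose and 1 fell, with a median of 0.15, and the 5 rises lost their call under median scaling. IGFBP2, which binds insulin-like growth factors, fell (-0.86 ± 0.14), while INSR, IGF1R, IRS1 and IRS2 did not pass, with changes between -0.08 and 0.28. Of 22 mTOR pathway genes 6 rose and 0 fell, with a median of 0.10, and under median scaling 3 rose and 4 fell. DDIT4L, an inhibitor of mTORC1 (1.00 ± 0.11), TSC1, a subunit of the complex that restrains mTORC1 (0.89 ± 0.14, with 0.94 and 0.12 at its other probes), and FNIP1, a folliculin partner (0.80 ± 0.10), rose most. Of 15 genes of the prolactin and STAT5 route 5 rose and 1 fell (3 and 1 under median scaling). SOCS2, a feedback inhibitor of growth hormone and prolactin receptors, had 9.58, 9.74 and 9.83 at 1 µM, against 8.29, 8.09 and 8.0 in basal samples, and the growth hormone receptor GHR rose as well (0.75 ± 0.13).

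Falls outnumbered rises among genes of cell cycle entry. Of 18 G1 cyclins, CDKs and CDK inhibitors 10 fell and 3 rose, with a median of -0.49, and under median scaling 12 fell and 1 rose. Cyclin D1 (CCND1), the ERK-dependent partner of CDK4 and CDK6, had 12.15, 11.92 and 12.01 at 1 µM, against 12.97, 12.95 and 12.88 in basal samples. CDK2 (-0.91 ± 0.12), the phosphatase CDC25A (-0.99 ± 0.14) and the CDK-binding CKS2 (-0.98 ± 0.09) fell, with -0.39, -0.39 and -1.21 at the other probes of CDK2, CDC25A and CKS2. The CDK inhibitor CDKN1A changed by 0.04 ± 0.12 (adjusted p = 0.861). Of 16 E2F factors and partners 7 fell and 0 rose (11 fell under median scaling), led by the activator E2F2 (-1.27 ± 0.10), the mitotic gene activator FOXM1 (-1.16 ± 0.15, with -0.58 at its other probe) and the repressor E2F7 (-1.03 ± 0.12).

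Of 40 genes of replication licensing and forks 31 fell and 0 rose, with a median of -0.66. CDC45, part of the replicative helicase, had 9.66, 9.68 and 9.61 at 1 µM, against 11.11, 11.13 and 11 in basal samples. MCM10 and GINS2 (both -1.39), which load and complete that helicase, fell by almost as much, while the clamp loader RFC2 (-1.15 ± 0.12) had -0.25 at its other probe. Replicative polymerases fell in 8 of 13 members, and enzymes of deoxynucleotide and nucleotide synthesis in 18 of 29, with 1 rise and a median of -0.41. Thymidylate synthase (TYMS), the source of dTMP, was at -1.38 ± 0.11 and CTPS1, which makes CTP, at -0.82 ± 0.10. Homologous recombination and Fanconi genes fell in 15 of 25 members and rose in 0, with a median of -0.61, among them RAD51AP1 (-1.24 ± 0.12), UBE2T (-1.21 ± 0.09) and the checkpoint kinase CHEK1 (-1.02 ± 0.11). The E2F-like letters TTTNNCGC were present in the promoter windows of 20 of 34 licensing and fork genes with a window (58.8%), against 12.4% of tested genes.

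Most tested genes of mitosis fell. All 11 tested mitotic kinesins fell, with changes from -1.32 to -0.63 and a median of -1.04. Of 29 mitotic kinases and regulators 22 fell and 0 rose (median -0.93), of 38 kinetochore and checkpoint genes 30 fell and 0 rose (median -0.73), and of 30 cohesin, condensin and cytokinesis genes 23 fell and 1 rose (median -0.77). The kinesin KIF14, which acts in cytokinesis, had 7.44, 7.59 and 7.45 at 1 µM, against 8.88, 8.9 and 8.65 in basal samples. The inhibitory kinase PKMYT1 (-1.48 ± 0.11), the kinetochore protein CENPW (-1.48 ± 0.18) and the chromosome passenger BIRC5 (-1.40 ± 0.11) fell. Cyclin A (CCNA2, -1.28 ± 0.11) and the spindle checkpoint protein MAD2L1 (-1.31 ± 0.12) fell as well. The proliferation marker MKI67 was above background on 1 of 3 arrays at 1 µM and on all basal arrays (fitted -0.68 ± 0.13).

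The cell cycle homology region TTTGAA, the element through which the DREAM complex binds many late cell cycle genes, was present on either strand in the windows of 53 of 89 mitosis genes with a window (59.6%), against 14.6% of tested genes and 15.2% of all windows. The CCAAT box was present in 73% of these mitosis genes, against 43.6% of tested genes. In the licensing and fork genes the region was present in 2.94%. It was present in 16% of all genes that fell and in 38% of those that fell at least 2-fold, which include mitosis genes already counted. Of 72 matches in the windows of mitosis genes, 2 shared a base with a match of another motif searched (E2F, CCAAT, forkhead, E-box or ETS), and as before a match is a description only. With the same chromosome left out as for the forkhead core, the windows of the 3 mitosis genes with the largest fall that hold it are shown with the match in capitals. They are chr12:6851237-6851536 (minus strand) for CDCA3, chr10:60778081-60778380 (plus strand) for CDK1 and chr4:17810729-17811028 (plus strand) for NCAPG, and the match begins at -3, -161 and -35 relative to the annotated start in CDCA3, CDK1 and NCAPG.
CDCA3: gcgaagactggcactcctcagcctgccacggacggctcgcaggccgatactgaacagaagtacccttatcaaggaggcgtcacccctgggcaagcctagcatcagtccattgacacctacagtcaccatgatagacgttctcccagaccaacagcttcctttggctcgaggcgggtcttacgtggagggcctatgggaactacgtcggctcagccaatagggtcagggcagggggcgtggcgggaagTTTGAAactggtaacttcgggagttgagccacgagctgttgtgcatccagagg
CDK1: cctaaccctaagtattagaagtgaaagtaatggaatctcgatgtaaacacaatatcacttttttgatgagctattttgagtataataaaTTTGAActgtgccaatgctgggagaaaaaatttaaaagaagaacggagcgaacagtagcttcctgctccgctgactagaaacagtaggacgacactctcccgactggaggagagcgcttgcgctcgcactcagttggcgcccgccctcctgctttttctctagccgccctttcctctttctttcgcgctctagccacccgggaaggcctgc
NCAPG: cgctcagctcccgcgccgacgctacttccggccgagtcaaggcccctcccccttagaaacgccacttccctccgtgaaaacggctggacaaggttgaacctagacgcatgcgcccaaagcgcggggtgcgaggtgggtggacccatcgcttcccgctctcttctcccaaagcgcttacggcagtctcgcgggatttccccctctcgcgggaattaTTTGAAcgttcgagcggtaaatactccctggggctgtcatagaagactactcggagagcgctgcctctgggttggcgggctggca

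Chromatin factors linked to replication fell in 16 of 25 members and rose in 1 (median -0.61), including the helicase HELLS (-1.02 ± 0.13, with -0.41 at its other probe), the methyltransferase EZH2 (-0.97 ± 0.15, with -0.46 and -0.47 at its others) and the lamins LMNB2 (-0.94 ± 0.09) and LMNB1 (-0.90 ± 0.12). Histone genes of the clustered loci differed from them. Of 30 tested, 8 rose and 3 fell, with a median of 0.01, and under median scaling 4 rose and 7 fell. The linker histone H1-2 had 11.35, 11.51 and 11.44 at 1 µM, against 10.19, 9.85 and 10.12 in basal samples, and H4C8 rose (0.93 ± 0.14), while H2BC9 fell (-0.66 ± 0.16). These genes resemble one another closely in sequence, and whether a probe reads more than 1 of them was not tested.

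Genes that build ribosomes were counted apart from the ribosomal proteins themselves. Of 43 nucleolar assembly genes 22 fell and 0 rose, with a median of -0.31 and a largest fall in PPAN (-0.73 ± 0.12), a factor of the large subunit. Of 50 cytosolic ribosomal proteins 5 rose and 4 fell, with a median of 0.09. Under median scaling 30 of the 43 fell and 0 rose, and of the 50 proteins 1 rose and 6 fell. The E-box CACGTG was present in the windows of 47.2% of nucleolar genes, against 12.4% of tested genes, and the ETS letters CCGGAAGT in 30.6%, against 9.24%. Translation factors were split, with 13 rises and 6 falls among 42 and a median of 0.01, and under median scaling 2 rose and 20 fell. The helicase cofactor EIF4B had 12.38, 12.42 and 12.33 at 1 µM, against 11.54, 11.68 and 11.41 in basal samples, and the poly(A)-binding PABPC1 rose (0.70 ± 0.10, with 0.13 at its other probe). The cap-binding EIF4E (-0.63 ± 0.14) and the hypusinated EIF5A (-0.73 ± 0.12) fell.

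Of 15 tested polyamine genes 1 rose, 3 fell and 11 did not pass, with a median of -0.11, and under median scaling 1 rose and 6 fell. Beside ODC1, AMD1, the other rate-limiting enzyme of synthesis, fell (-1.07 ± 0.13). SAT1, which acetylates polyamines for export and breakdown, had 12.81, 13.02 and 13.03 at 1 µM, against 11.63, 11.61 and 11.69 in basal samples. SAT1 was the rise in this list. Chaperonin and heat shock genes fell in 14 of 30 members and rose in 0 (median -0.29), with the chaperonin subunit TCP1 at -0.63 ± 0.11 and HSP90AA1 at -0.51 ± 0.13, and 23 fell under median scaling. Proteasome subunits fell in 11 of 27 and rose in 0 (median -0.20), most of all the deubiquitinase PSMD14 (-0.90 ± 0.10), and 25 fell under median scaling. ATF4 targets were mixed, with 6 rises and 4 falls among 20. Asparagine synthetase (ASNS) rose (0.66 ± 0.10), though not under median scaling (0.31, adjusted p = 0.0632 in limma), and the serine synthesis enzyme PSAT1 fell (-0.88 ± 0.10), and under median scaling 1 of the 20 rose and 7 fell. Among 27 genes of ER chaperones and the unfolded protein response 7 rose and 7 fell (2 and 12 under median scaling), XBP1 being higher (0.63 ± 0.11) and the cochaperone SDF2L1 lower (-0.98 ± 0.12).

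In carbon metabolism glycolysis and pentose phosphate genes fell in 10 of 29 members and rose in 1, with a median of -0.22, and 22 fell under median scaling. LDHA, which turns pyruvate to lactate, had 13.22, 13.29 and 13.3 at 1 µM, against 14.27, 13.99 and 14.02 in basal samples. The glucose transporter SLC2A1 did not pass (0.15 ± 0.09, adjusted p = 0.244). SLC2A10, a related transporter of endomembranes, had 13.06, 13.13 and 13.14 at 1 µM, against 11.71, 11.29 and 11.18 in basal samples, and SLC2A12 rose too (0.84 ± 0.15). Mitochondrial ribosome and import genes fell in 24 of 60 members and rose in 0 (median -0.22), among them the import channel TOMM40 (-0.79 ± 0.14) and TIMM10 (-0.82 ± 0.12). Respiratory chain subunits fell in 8 of 50 and rose in 3 (median -0.17). Under median scaling 48 of the 60 and 38 of the 50 fell. SDHA, which serves both the chain and the TCA cycle, rose (0.70 ± 0.11).

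Lipid genes moved both ways. Of 22 genes of cholesterol synthesis and uptake 9 fell and 3 rose (median -0.13), and under median scaling 12 fell and 2 rose. Squalene epoxidase (SQLE, -0.70 ± 0.10) and INSIG1 (-0.70 ± 0.11) fell, while TM7SF2, a sterol reductase, had 10.43, 10.52 and 10.37 at 1 µM, against 9.16, 9.17 and 9.29 in basal samples. The lipid carrier FABP5 fell (-1.14 ± 0.13). Of 37 genes of fatty acid oxidation and the peroxisome 13 rose and 3 fell (median 0.21), but under median scaling 2 rose and 4 fell. ETFDH, which passes electrons from oxidation to the chain, rose (0.79 ± 0.14), and so did PEX6, a peroxisome import ATPase (0.73 ± 0.12). The bile acid oxidase ACOX2 had 6.3, 6.34 and 6.15 at 1 µM, where it was not above background, against 7.61, 7.37 and 7.43 in basal samples, and was at least 2.01-fold lower (adjusted p = 1.66e-08). Bounds of this kind set the brighter group's mean against the background level of the dimmer group's arrays.

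Genes that handle drugs and retinoids rose more often than they fell, with 10 rises and 2 falls among 24 tested P450 and drug metabolism genes, and 8 and 3 under median scaling. Beside CYP4B1 these included the aldehyde dehydrogenases ALDH3A2 (0.98 ± 0.12, with 1.09 and 0.16 at its other probes), ALDH1A3 (0.90 ± 0.13) and ALDH1A1 (0.80 ± 0.12). Of 21 ABC transporters 5 rose and 3 fell (3 and 4 under median scaling). ABCA1, which exports cholesterol, had 8.23, 8.59 and 8.41 at 1 µM, against 6.89, 6.76 and 6.43 in basal samples, where it was above background on 2 of 3 arrays. ABCC5 rose (1.03 ± 0.11, with 0.72 and 0.42 at its other probes), and ABCC3 (-1.01 ± 0.11) and ABCC4 (-0.80 ± 0.14), exporters of organic anions, fell. The efflux pump ABCB1 was above background on 0 of 3 arrays at 1 µM and on 1 of 3 basal arrays.

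Rises outnumbered falls among lysosomal and autophagy genes, though not under median scaling for the lysosomal lists. Of 35 lysosomal hydrolases 13 rose and 5 fell (median 0.24), of 30 lysosomal membrane and proton pump genes 15 rose and 2 fell (median 0.27), and of 47 autophagy genes 18 rose and 3 fell (median 0.24). Under median scaling the rises and falls were 5 and 6, 2 and 3, and 12 and 6, and the 3 medians were 0.17, 0.10 and 0.20 above the all-gene median of that scaling. Cathepsin B (CTSB, 0.74 ± 0.09) and the V-ATPase subunit ATP6V1C2 (0.80 ± 0.12) rose, while the lysosomal transcription factor MITF fell at its brightest probe (-0.62 ± 0.17) but not at its other one (0.07), a call that ended without 1 µM replicate 2 (-0.50) or basal replicate 1 (-0.43). ULK1, the kinase that starts autophagy, had 12.1, 12.18 and 12.14 at 1 µM, against 11.09, 11.15 and 11.06 in basal samples. TP53INP2, a nuclear autophagy scaffold (1.11 ± 0.09), TMEM59 (1.02 ± 0.10) and the phosphoinositide-binding WIPI2 (0.89 ± 0.12) rose as well, and ATG3, ATG4B and ATG101 fell by 0.39 to 0.50.

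Among 31 genes of the BCL2 family and apoptosis 13 rose and 3 fell, with a median of 0.11, and under median scaling 5 rose and 8 fell. The BH3-only gene BIK had 8.23, 8.25 and 8.36 at 1 µM, against 7.06, 6.75 and 7.08 in basal samples. BMF, another BH3-only gene, was not above background in basal samples and was at least 1.22-fold higher (adjusted p = 0.00205). Both the caspase-8 inhibitor CFLAR (1.10 ± 0.13) and the death ligand TNFSF10 (fitted 0.95 ± 0.15, above background on 1 of 3 basal arrays) rose, and so did MCL1 (0.45 ± 0.11), whose call ended under median scaling (0.15) and whose other probe gave 0.13. BCL2 did not pass (0.06 ± 0.13, adjusted p = 0.81). Of 18 p53 targets 3 rose and 3 fell (2 and 4 under median scaling), with SUSD6 the largest rise (1.57 ± 0.11).

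Stress-related genes were grouped in several lists. Of 7 tested metallothioneins 3 fell and 0 rose, MT1X (-1.0 ± 0.24) and MT1G (-0.86 ± 0.23) beside MT2A, and 5 fell under median scaling. MT2A had 11.05, 10.85 and 10.66 at 1 µM, against 12.63, 12.7 and 12.75 in basal samples. The family shares much of its sequence, so its probes may not be independent. NRF2 targets split into 6 rises and 6 falls among 20 (1 and 9 under median scaling), and the glutathione peroxidase GPX2 led the rises (0.95 ± 0.14). Of 24 hypoxia-inducible genes 5 rose and 3 fell (1 and 6 under median scaling), with CA12, a surface carbonic anhydrase, higher (1.08 ± 0.11) and the repressor BHLHE40 lower (-1.48 ± 0.11). Among 16 iron genes 6 rose and 4 fell, and under median scaling 2 rose and 8 fell. The exporter SLC40A1 had 8.64, 8.71 and 8.74 at 1 µM, against 7.27, 7.06 and 7.2 in basal samples, with 0.16 at its other probe, and the ferrireductase STEAP3 rose (0.80 ± 0.09).

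Of 31 NF-kB cytokines, chemokines and inhibitors 9 fell, 1 rose and 21 did not pass, with a median of -0.08, and under median scaling 13 fell and 0 rose. Of the 9 falls 3 were S100 genes. The alarmins S100A8 and S100A9, which form calprotectin, were abundant. S100A8 had 12.8, 12.66 and 12.76 at 1 µM, against 14, 14.07 and 13.94 in basal samples, and S100A9 had 13.58, 13.4 and 13.5 at 1 µM, against 14.82, 14.14 and 14.58 in basal samples. The related S100A7 fell too (-1.35 ± 0.16). The chemokine CXCL8 was not above background at 1 µM and was at least 1.77-fold lower (adjusted p = 2.64e-07), with -0.33 at its other probe. Interferon-stimulated genes went the other way, with 7 rises and 1 fall among 33 (median 0.10), and 3 rises and 2 falls under median scaling. IFI6 rose most (1.16 ± 0.12), and ISG15 was the fall (-0.47 ± 0.14), a call that ended without 1 µM replicate 1 (-0.36) or basal replicate 3 (-0.43). Of 19 MHC class I presentation genes 5 rose and 1 fell (1 and 4 under median scaling). The loading factor TAPBP rose at its brightest probe (0.82 ± 0.16, with 0.12 and -0.01 at the others) and the transcription factor RFX5 fell (-0.72 ± 0.09).

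Some products of secretory and luminal epithelium were among the larger rises. Of 24 mucins, milk and secretory products 10 rose and 3 fell (median 0.14), with 6 rises of at least 2-fold. MUC15 had 8.65, 8.49 and 8.62 at 1 µM, against 6.9, 6.9 and 7.07 in basal samples, and MUC16 had 8.42, 8.19 and 8.24 at 1 µM, against 7.12, 6.6 and 7.07 in basal samples. The secretoglobins SCGB1D2 (1.35 ± 0.18) and SCGB2A1 (1.28 ± 0.17), secreted by mammary epithelium, also rose, whereas the acute phase protein ORM1 fell (-1.10 ± 0.10). Under median scaling the counts for this list were 6 rises and 6 falls. Of 32 luminal transcription factors and hormone receptors 13 rose and 3 fell (median 0.16), and 6 and 3 under median scaling. SOX9 (0.97 ± 0.10), ELF3 (0.86 ± 0.09) and SPDEF (0.68 ± 0.11) led them. Of 38 keratin, junction and adhesion genes 11 rose and 3 fell (6 and 5 under median scaling), with RAB25 (1.01 ± 0.12) and CLDN3 (0.94 ± 0.12) higher and CLDN1 lower (-0.84 ± 0.10).

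Other regulators followed no single lineage. Of 23 basal and mesenchymal genes 5 rose and 4 fell (3 and 7 under median scaling), with smooth muscle actin (ACTA2) at 9.38, 9.82 and 9.8 at 1 µM, against 8.41, 8.52 and 8.46 in basal samples, and ANXA1 lower (-0.84 ± 0.11). KLF and TSC22 factors rose in 9 of 24 members and fell in 2 (8 and 3 under median scaling), KLF4, a factor of epithelial differentiation (1.24 ± 0.12, with 0.20 at its other probe), and TSC22D1 (1.19 ± 0.13) being higher and KLF2 lower (-0.90 ± 0.09). Markers of other cell types were counted as well. Of the fibroblast, leukocyte and endothelial markers, 5, 6 and 9 were tested, and 0, 0 and 2 passed. The called genes were ESAM (0.91 ± 0.12) and VWF (0.46 ± 0.12), so 22.2% of the tested endothelial markers rose, against 14.3% of all genes. The log2 of the summed leukocyte markers was 11.8 to 11.93 at 1 µM and 11.7 to 11.74 in basal samples, and that of the fibroblast markers 15.04 to 15.19 at 1 µM and 14.89 to 15.06 in basal samples. For endothelial markers the sums were 10.63 to 10.73 at 1 µM and 10.54 to 10.6 in basal samples, and the part of other cells in the results was not tested.

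**Figure D3:**
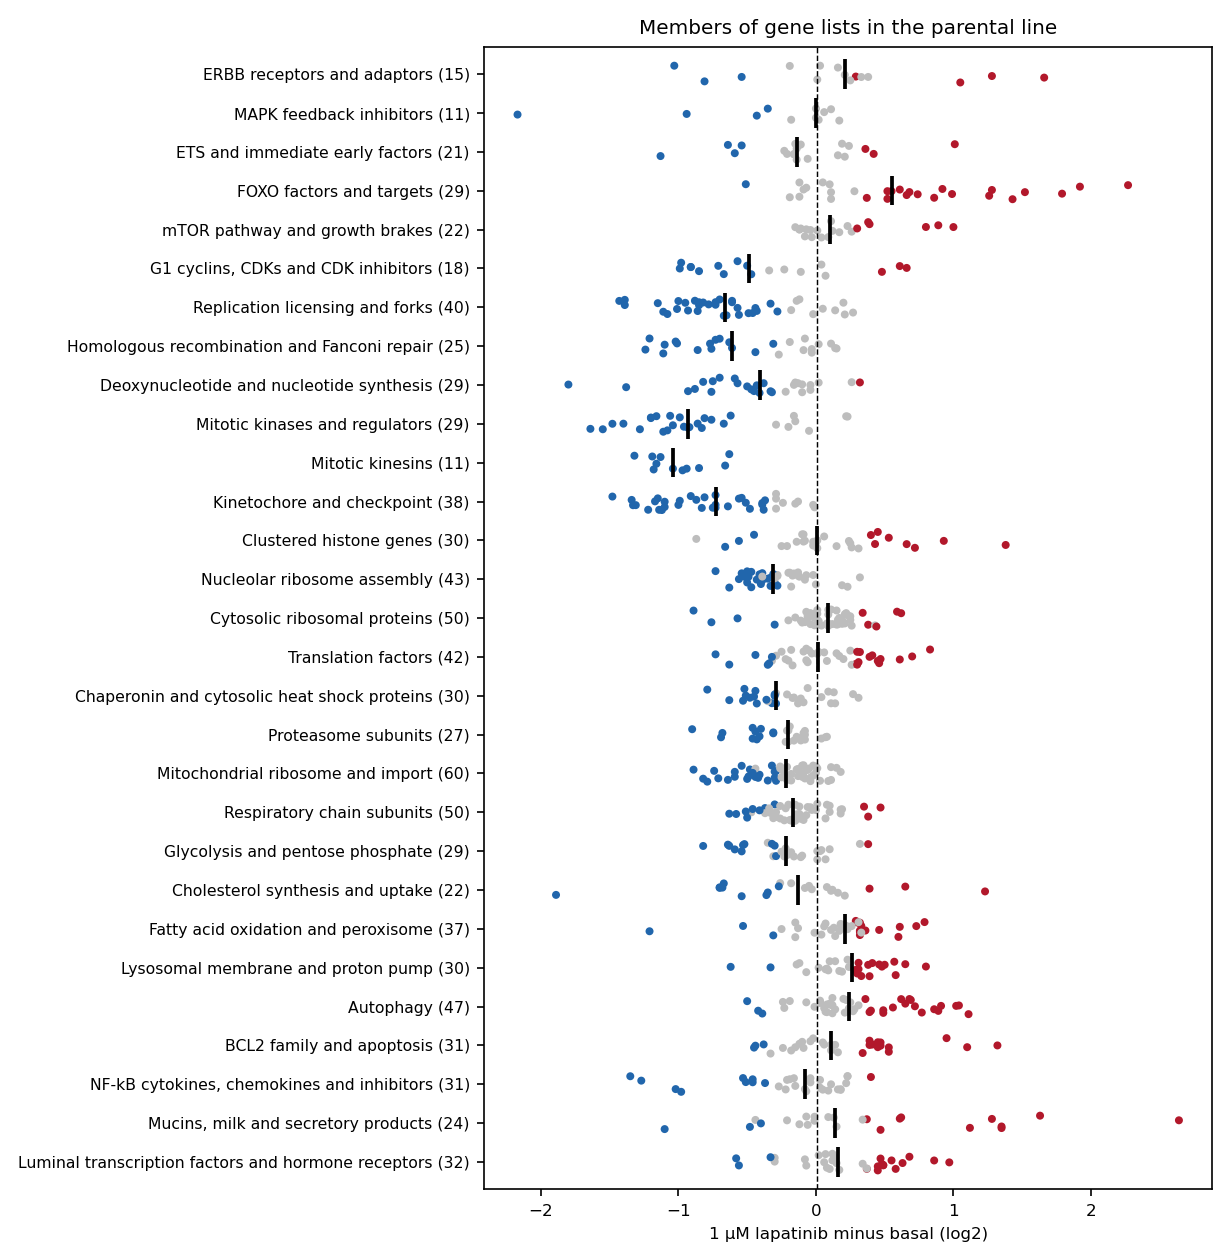
Log2 change, 1 µM minus basal, of the tested members of 29 gene lists, with the number tested in brackets. Red points rose, blue points fell and grey points did not pass. Black bars are list medians and the dashed line is the median of all genes (0.01). The kinesins have the lowest median (-1.04) and the FOXO list the highest (0.55).

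Whether the full dose did more than the lower one was asked by comparing 1 µM with 0.1 µM, which leaves out the basal arrays. In limma, 692 of 12541 genes passed (5.52%), 388 higher (3.09%) and 304 lower (2.42%) at 1 µM. The count was 378 under median scaling, 311 to 451 with 1 of these arrays left out, and 1318 when the resistant 0.1 µM arrays did not enter the fit. Of the 16 largest rises over basal, 15 were also higher at 1 µM than at 0.1 µM. These 16 were chosen partly by the same 1 µM arrays that enter the step, which favours a step upward. The count of 15 is thus a description and not independent support. MUC1 had 10.3, 10.16 and 10.27 in basal samples, 11.71, 11.67 and 12.02 at 0.1 µM and 12.94, 12.84 and 12.87 at 1 µM, a step of 1.09 (adjusted p = 2.12e-05). The step was 1.32 for CYP4B1, 1.19 for ABCA1, 1.05 for SOCS2 and 1.02 for FBXO32. GPX2 had 9.18, 9.6 and 9.46 in basal samples, 9.35, 9.33 and 9.56 at 0.1 µM and 10.51, 10.3 and 10.27 at 1 µM, so its arrays at 0.1 µM lay within the basal range. SNAR-A1 was at 13.51, 13.54 and 13.58 at 0.1 µM, and its step to 1 µM was -2.57 (adjusted p = 0.00125). For SPINK8, the exception among the 16, the step was 0.40 (adjusted p = 0.159).

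Some genes were not ordered by dose. EGR1 had 9.61, 9.58 and 9.46 in basal samples, 10.49, 10.68 and 10.43 at 0.1 µM and 8.49, 8.34 and 8.41 at 1 µM, so that the lower dose lay above (0.99, adjusted p = 2.3e-05) and the full dose below basal. KLF2 had 10.08, 9.75 and 9.88 in basal samples, 10.31, 10.3 and 10.11 at 0.1 µM and 9.06, 8.93 and 9.02 at 1 µM, with the same order of doses (0.33 at 0.1 µM, adjusted p = 0.0199). DUSP1 was highest at 0.1 µM, with 11.78, 11.82 and 11.71, and its arrays at 1 µM (10.76, 10.64 and 10.27) overlapped the basal ones (10.5, 10.45 and 10.4). At 0.1 µM against basal 5.93% of genes were higher and 5.34% lower. By lists, the step to 1 µM passed in 9 FOXO members upward and 1 downward, in 11 of 40 licensing and fork genes downward, in 5 of 29 mitotic kinases and regulators downward and in 1 of 11 kinesins downward, with 0 upward in these last 3. Among translation factors 5 were higher and 1 lower at 1 µM than at 0.1 µM.

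**Figure D4:**
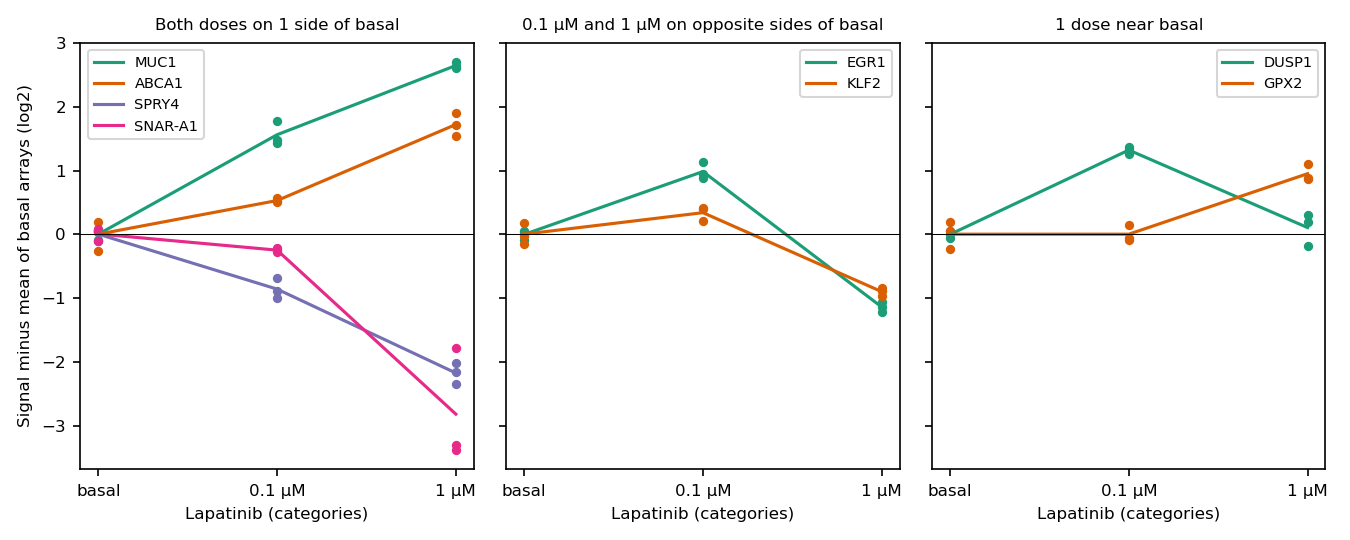
Log2 signal of 8 genes in the parental line under basal conditions, at 0.1 µM and at 1 µM, minus the mean of the basal arrays; points are arrays (3 per dose), lines join the means, and the x axis is in categories. MUC1 and ABCA1 lie above and SPRY4 below basal at both doses, SNAR-A1 is far below at 1 µM, EGR1 and KLF2 lie above basal at 0.1 µM and below it at 1 µM, DUSP1 is highest at 0.1 µM, and GPX2 is higher at 1 µM.

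Where the response of the parental line differs from that of the resistant line was tested as the difference of both responses at 1 µM. It passed for 86 of 12541 genes (0.686%), 47 with a higher change in the parental line (0.375%) and 39 with a lower one (0.311%). Under median scaling 73 passed, 8 with a higher and 65 with a lower change in the parental line. The count was 32 to 67 with 1 array left out and 298 when the resistant 0.1 µM arrays did not enter the fit. PDK4 rose by 1.52 in the parental line and changed by 0.31 in the resistant line, a difference of 1.20 (adjusted p = 0.00146). Its arrays in the resistant line were at 6.94, 6.76 and 6.69 at 1 µM and at 6.17, 6.66 and 6.63 in basal samples. LRRC31 (difference 1.18), MAL (1.05), ABCA1 (0.92), FBXO32 (0.82) and CAPN9 (0.82) rose in the parental line and changed by 0.66 to 1.44 in the resistant line. The differences of PDK4, LRRC31 and MAL passed under every alternative run, while those of FBXO32 (0.60) and CAPN9 (0.77) no longer passed with median scaling. CAPN9 also did not pass without parental 1 µM replicate 2 (0.75), nor did ABCA1 without that array (0.83), parental basal replicate 3 (0.78) or resistant 1 µM replicate 2 (0.87). CPS1, the first enzyme of the urea cycle, had 11.25, 10.79 and 10.74 at 1 µM, against 12.25, 12.18 and 12.05 in basal samples of the parental line, and 12.67, 12.79 and 12.71 at 1 µM, against 12.96, 13.05 and 12.98 in basal samples of the resistant line. Its difference (-0.97) passed under every alternative run.

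The fall of the helicase subunit GINS4 (-1.11 in the parental line and -0.09 in the resistant line), and that of ACOX2 (-1.21 and -0.31), were larger in the parental line. The kinesin KIF20A fell less there (-1.19 and -1.89). In the resistant line ACOX2 was at 5.88, 6.27 and 6.21 at 1 µM, against 6.43, 6.46 and 6.42 in basal samples. These basal signals lay close to those of the parental line at 1 µM, which were not above background. A fall in the resistant line thus had little room to show. The difference of ACOX2 passed under every alternative run. That of GINS4 did not pass without any 1 of the parental 1 µM arrays, parental basal replicate 2 or 3, resistant 1 µM replicate 2, or resistant basal replicate 1 or 3 (-1.06 to -0.86). That of KIF20A did not pass with median scaling (0.50) or without parental 1 µM replicate 1 or 3, resistant 1 µM replicate 1 or 2, or resistant basal replicate 2 (0.62 to 0.70). Within the cell cycle lists the difference passed in 2 of 40 licensing and fork genes, with a lower change in the parental line. It passed with a higher change there in 1 of 29 mitotic kinases and regulators and 2 of 11 kinesins. It passed in 0 of 18 G1 genes, 16 E2F factors and partners, 13 polymerases and 25 recombination and Fanconi genes. The count was also 0 among 38 kinetochore and checkpoint genes and 30 cohesin, condensin and cytokinesis genes. Of all genes 0.686% passed. The largest rise and fall of the parental response did not pass this test, CYP4B1 with 2.87 (adjusted p = 0.545) and SNAR-A1 with -1.17 (adjusted p = 0.278) in the resistant line. A p above the threshold does not show that responses were equal. MUC1 was at 2.64 and 1.94 and did not pass (adjusted p = 0.0956). The differences of SNAR-A1 and MUC1 did pass when the resistant 0.1 µM arrays did not enter the fit (-1.66 and 0.71).

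**Figure D5:**
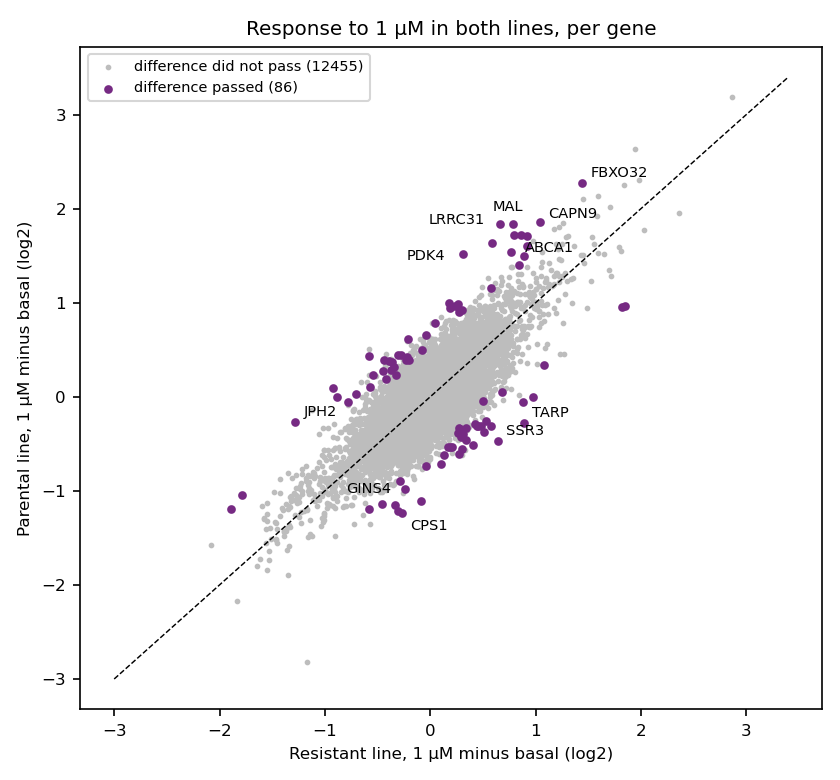
Log2 change, 1 µM minus basal, of each tested gene in the parental line (y axis) and the resistant line (x axis), with the diagonal of equal change dashed. Purple points are the 86 genes whose 2 changes differed by limma's test; PDK4, LRRC31 and MAL lie above the diagonal and TARP, SSR3 and CPS1 below it.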

How the data were processed

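Total RNA of 18 samples of SKBR3 cells was measured on Illumina bead arrays. The authors deposited a table of probe intensity values, non-normalized per the labels, and a normalized table used as an alternative. The submitters' processing notes name BeadStudio without a version. The deposited intensity table held 48803 probes and no detection p-values. Of these, 28098 had 1 gene symbol, 13 several and 20692 none in the platform annotation. Of the 28098 probes, 28059 were matched to RefSeq by gene identifier and took the symbol given there. Intensities were background-corrected (normexp, offset 50), quantile normalized and taken to log2 with limma 3.58.1 in R 4.3.3, since the deposited values were not yet on a log2 scale.

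Background was taken per array as the mode of log2 signals, its spread as the SD of values below that mode, and the cut-off for a probe was set where 0.05 of background probes would exceed it. Probes above background on at least 3 of 18 arrays were kept (22684, of which 16763 named), and the brightest probe stood for a gene, which concerned 3272 genes with several. limma fitted 6 group means over all 18 arrays with an intensity trend, and p-values were Benjamini-Hochberg adjusted over 12541 genes at 0.05. With 3 arrays a group, an exact permutation test of 1 gene cannot go below 0.1, and the number of arrays limits precision. The fit was tested on simulated data.

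The members and gene lists were chosen with earlier results of these data known. Genes named were the 16 largest rises and falls with no overlap of arrays, up to 5 called members of each list, a panel of known genes and the 6 largest of either direction in the dose and line comparisons. Further list members (CCNG2, YPEL3, SOD2, SESN1, SESN3, SPRY2, SPRED1, ORM1, ATG3, ATG4B, ATG101) were named after their values were seen. Alternatives covered the authors' normalized values, background correction, median scaling, the filter on dim probes, the choice of probe, the trend, a replicate block, the 6 arrays alone and arrays left out. Leaving the resistant 0.1 µM arrays out of the fit was added after the data were seen.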

Additional observations from a re-analysis of the deposited data

Results flagged for a closer look

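The response to 1 µM differed between the parental and the resistant line, by limma's test of the difference (parental minus resistant, adjusted over all genes), for the genes that follow and for others, among them ABCA1, ACOX2 and KIF20A, whose values stand in the report. PDK4 (difference 1.20), LRRC31 (1.18), MAL (1.05), FBXO32 (0.82) and CAPN9 (0.82) rose more in the parental line. BNIPL differed by 1.05 at its brightest probe, but the mean of its probes gave 0.49 (adjusted p = 0.208). MIR503HG (1.01) and JPH2 (1.01) changed by 0.09 and -0.27 in the parental line and by -0.92 and -1.28 in the resistant line, and the call of MIR503HG ended under median scaling (0.84), with the replicate block and without any 1 array of the comparison (0.87 to 1.09). TARP (-1.16), SSR3 (-1.12) and ANKRD37 (-0.93) changed by -0.28, -0.47 and -0.05 in the parental line and by 0.89, 0.64 and 0.88 in the resistant line, and the call of ANKRD37 ended without resistant 1 µM replicate 2 (-0.85) or resistant basal replicate 2 (-0.79). GINS4 (-1.02) and CPS1 (-0.97) fell more in the parental line, and the call of GINS4 ended without any 1 of 8 arrays (-1.06 to -0.86). GSTA3 (-0.97) was at background on all 6 parental arrays.

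Probes that the annotation does not name stand outside the comparison of genes. Of 5921 such probes kept, 604 passed between 1 µM and basal (10.2%, against 24.5% of named probes), 295 higher and 309 lower. The highest was ILMN_1815203 (2.42) and the lowest ILMN_1765701 (-1.76).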

How the results depend on the processing

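The count of genes that changed at 1 µM against basal stayed within 1.5 times its value of 3507 under each alternative run, from 2867 with 1 array left out to 4342 under median scaling. With the replicate number as a block it was 3452. After group means were taken off, same-numbered arrays of different groups correlated at -0.20 to 0.17 (45 pairs, mean -0.01). Of 18 arrays 0 correlated best with their own number in every other group. That requirement is so strict that unpaired arrays would rarely meet it and paired ones may miss it. The count therefore cannot decide whether arrays were paired. Among genes named, the block ended the calls of ERBB2 and HLA-E at 1 µM against basal (adjusted p = 0.0595 and 0.051) and that of MIR503HG between the lines, and no other. The 86 genes whose responses differed between the lines became 51 without the intensity trend, 32 to 67 with 1 array left out, 64 with the replicate block and 298 without the resistant 0.1 µM arrays. The 692 genes of the step to 1 µM became 378 under median scaling, 311 to 451 with 1 array left out, 631 with the replicate block and 1318 without the resistant 0.1 µM arrays. The lowest correlation within a group was 0.9864 for the resistant 0.1 µM arrays and 0.993 or more in the other groups. The cause of these shifts was not tested.

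Of 328 genes covered by the naming rule 307 passed, and 242 of the 307 kept direction and call under all 16 alternatives. Direction turned under median scaling for IGF2R (-0.05), EPRS1 (-0.05), PSMB10 (-0.02), EGFR (-0.01), HSPA5 (-0.06), CDKN1A (-0.21), SLC2A1 (-0.21), DUSP1 (-0.22) and MIR503HG (-0.17). With the mean of a gene's probes it turned for MAFF (0.11), RPL34 (-0.03) and CLOCK (0.05), and with the 6 arrays alone for RPL34 (-0.63), where another probe was brightest. With 1 array left out, genes near 0 ranged across it: CDKN1A from -0.02 to 0.10, BCL2 from -0.03 to 0.16, BCL2L11 from -0.07 to 0.24, MIR503HG from -0.05 to 0.16 and GSTA3 from -0.04 to 0.06. The median of the fibroblast markers relative to all genes was 0.01 without the filter on dim probes. Signals near background understate changes of dim genes.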
